A study of Mus musculus with 4 samples.

Results

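Transcript levels of 6 mouse genes tied to interferon were examined across 4 RNA-seq libraries: Ifitm1, Ifitm2, Ifitm3, Bst2, Isg15 and Irf1. The genes were taken by symbol from a table of 47633 genes, and all 6 had a row. They were chosen by measured values: the Ifitm1 level is low after LIF withdrawal and high in the embryoid body library, so both of those contrasts are described here for the 6 genes without a test. The first condition was mouse embryonic stem (ES) cells kept for 2 days without leukaemia inhibitory factor (LIF), with 1 library. The second was labelled embryoid body (EB), induced by 5 days without LIF, with 1 library. Undifferentiated ES cells in LIF made up the 2 remaining libraries, ES 1 and ES 2. All cells were of the 129S2/SvPas strain, and the ES cultures grew on C57/BL6 mouse embryonic fibroblasts stopped with mitomycin C, so a library can hold fibroblast RNA. Neither derived condition had a replicate, and the labels do not say whether ES 1 and ES 2 were grown as different cultures. In bulk RNA, fewer cells that express a gene and less RNA per cell cannot be told apart.

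Interferons are secreted antiviral proteins that bind cell-surface receptors and activate JAK kinases and STAT factors. Type I interferons act mainly at interferon-stimulated response elements (ISRE), and interferon gamma at GAS elements, a kind of site that STAT3, the factor downstream of LIF, can also bind. Pluripotent cells are known to answer interferon weakly, yet to express some interferon-induced genes without it, Ifitm genes among them. IFITM proteins are small membrane proteins that hinder virus entry, and mouse Ifitm1 and Ifitm3 are also known from early germ cells.

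The bases upstream of the RefSeq gene starts were searched on both strands for the ISRE core GAAANNGAA and the GAS core TTCNNNGAA, over 250 bases per start. The following are shown because they place the genes with such letters beside Ifitm1, the gene that moved most. Capitals mark matches, build is GRCm38.p6, and bases that GENCODE places in an exon of the gene are left off the end.

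Isg15, chr4:156200819-156201068, minus strand: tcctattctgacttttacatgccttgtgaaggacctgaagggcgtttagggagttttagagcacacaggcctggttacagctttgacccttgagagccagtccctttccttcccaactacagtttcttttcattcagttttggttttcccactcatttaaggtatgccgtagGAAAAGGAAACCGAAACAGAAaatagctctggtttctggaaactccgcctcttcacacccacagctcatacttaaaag
Bst2, chr8:71537473-71537722, minus strand: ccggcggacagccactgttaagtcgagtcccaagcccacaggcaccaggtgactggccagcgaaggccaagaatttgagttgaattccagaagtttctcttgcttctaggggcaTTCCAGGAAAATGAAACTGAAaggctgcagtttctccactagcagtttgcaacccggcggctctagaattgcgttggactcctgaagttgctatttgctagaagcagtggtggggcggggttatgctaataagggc
Irf1, chr11:53769764-53770013, plus strand: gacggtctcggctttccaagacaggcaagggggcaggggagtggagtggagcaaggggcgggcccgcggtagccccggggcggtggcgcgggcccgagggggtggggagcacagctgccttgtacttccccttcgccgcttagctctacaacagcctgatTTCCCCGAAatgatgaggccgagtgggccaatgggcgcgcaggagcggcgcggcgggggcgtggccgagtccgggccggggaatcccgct
Ifitm2, chr7:140955988-140956211, minus strand: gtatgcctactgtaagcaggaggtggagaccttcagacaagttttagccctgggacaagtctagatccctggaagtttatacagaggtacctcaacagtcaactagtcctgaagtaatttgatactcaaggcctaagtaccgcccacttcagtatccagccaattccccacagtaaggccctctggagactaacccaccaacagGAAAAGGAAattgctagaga
Ifitm1, chr7:140967826-140968027, plus strand: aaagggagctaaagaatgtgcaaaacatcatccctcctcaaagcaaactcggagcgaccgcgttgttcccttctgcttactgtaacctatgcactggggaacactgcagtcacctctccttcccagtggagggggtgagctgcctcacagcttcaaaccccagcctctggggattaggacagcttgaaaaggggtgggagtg

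Isg15 held 3 overlapping ISRE core matches, between 78 and 58 bases before its start. Bst2 held 2 ISRE core matches between 130 and 116 bases before its start, the first of them overlapping a GAS core match at 136 to 128. Ifitm2 held 1 ISRE core match, at 46 to 38 bases, and Irf1 held 1 GAS core match, at 90 to 82 bases before the first of its 2 RefSeq starts. The windows of Ifitm1 and Ifitm3 held neither set of letters. The GENCODE model of Ifitm1 starts at 140967221, before the RefSeq start, so the Ifitm1 window lies inside that model. The bases before the GENCODE start of Ifitm1 were not searched. Over all 32851 RefSeq promoters of that length, 7.13% held the ISRE core and 7.02% the GAS core. A match is a description of letters and not evidence of a bound site.

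The libraries held an estimated 18.3 M fragments after LIF withdrawal, 26.7 M for EB, and 31.8 M and 26.7 M for ES 1 and ES 2. The LIF withdrawal library stood apart: its 10 highest genes held 44.7% of its summed FPKM, against 17.4% in EB, and 15.5% and 9.8% in ES 1 and ES 2. That sum was 865343 FPKM after LIF withdrawal, 594026 in EB, and 582093 and 528718 in ES 1 and ES 2. Median-of-ratios factors, which rest on the middle of the distribution, ran from 0.982 to 1.034. Values are FPKM, fragments scaled to gene length and to sequencing depth, so levels of different genes are compared per length. The pluripotent character of the libraries was checked with 10 ES cell markers, among them Pou5f1, Nanog and Sox2. Their FPKM summed to 2470 after LIF withdrawal, 2844 in EB, and 2333 and 2327 in the ES libraries. These sums lean on Dppa5a, at 805 FPKM after LIF withdrawal, 1136 in EB, and 561 and 577 in ES cells. The median log2 difference of the 10 was -0.02 after LIF withdrawal and 0.219 in EB, and none was 2-fold below ES cells in either derived library. The EB library, despite its label, thus kept its ES cell markers by this measure. Fibroblast markers (20 genes) summed to 454 FPKM after LIF withdrawal, 186 in EB, and 217 in each ES library, with 9 of the 19 at 1 FPKM or more at least 2-fold above both ES libraries after LIF withdrawal (8.84% of all genes) and 6 in EB (1.63%). Vim, the 1 fibroblast marker 2-fold below both ES libraries in EB, stood at 123 FPKM after LIF withdrawal, 41.2 in EB, and 101 and 102 in ES cells. The part of these markers in the results was not tested.

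**Figure D1:**
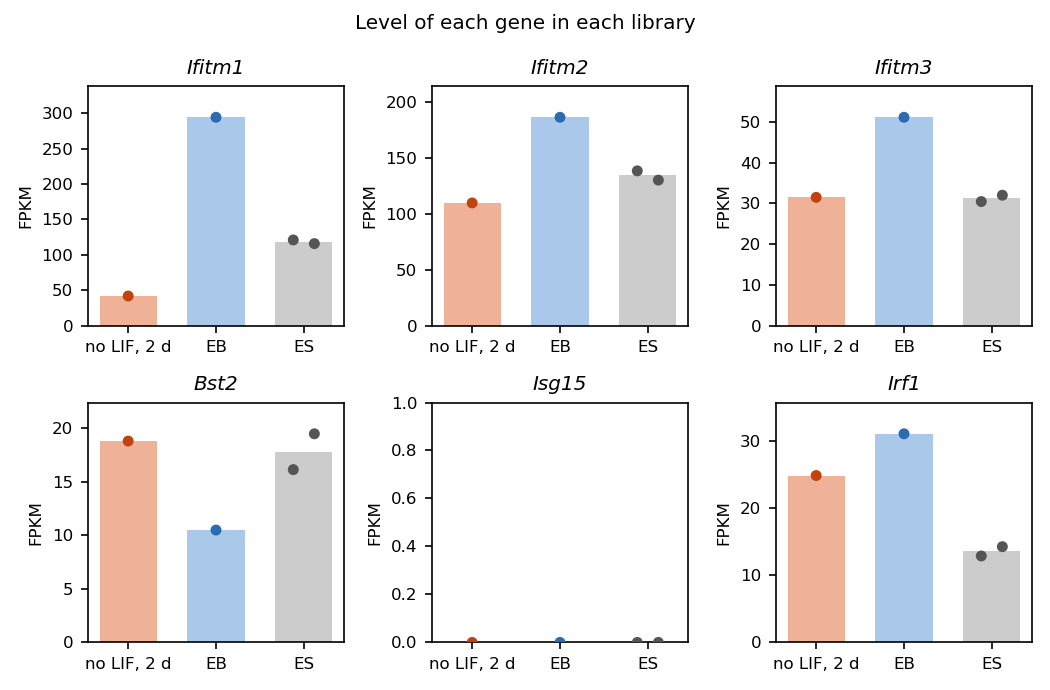
FPKM of each gene in the library kept 2 days without LIF, the EB library and the 2 ES libraries. Dots are libraries, bars are the library value or, for ES, the mean of 2. Ifitm1 was at 42.1 FPKM without LIF and 294 in EB, Irf1 was above both ES libraries in each derived library, and Isg15 was listed at 0 throughout.

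Ifitm1 (ENSMUSG00000025491.14, chromosome 7, 140967221 to 140969825, plus strand, mm10) was the member whose level differed most between libraries. It stood at 42.1 FPKM after LIF withdrawal, 294 FPKM in EB, and 121 and 116 FPKM in ES cells. The LIF withdrawal library lay far below the ES pair and the EB library far above it, and no groups overlapped. Relative to the ES mean of 118 ± 3.64 FPKM (SD, n = 2), the ratio was 0.356 after LIF withdrawal and 2.48 in EB, which corresponds to differences of -1.47 and 1.30 in log2(FPKM + 1). Of 9163 protein-coding genes at 5 FPKM or more in a library, 18 were at least as far below ES cells after LIF withdrawal, Ifitm1 included, and 48 at least as far above them in EB. Between the derived libraries, which share the ES controls, the level in EB was 6.98 times that after LIF withdrawal. By size alone, 0.836% of the 15676 genes at 1 FPKM or more were at least 2-fold below both ES libraries after LIF withdrawal and 1.63% at least 2-fold above them in EB. The counting interval (95%, counting error only) was 39.3 to 45.1 FPKM after LIF withdrawal and 288 to 300.0 in EB, against 117 to 125 in ES 1 and 112 to 120.0 in ES 2. Ifitm1 was the only one of the 6 to pass that size in both, a result that follows from its choice.

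Ifitm2, a close relative that acts against viruses in endosomes, stood at 109.7 FPKM after LIF withdrawal, 186 in EB, and 138 and 130.1 FPKM in ES cells. It shared the order of Ifitm1 at a smaller scale, with the derived libraries on opposite sides of the ES pair and neither 2-fold away (log2 differences of -0.29 and 0.47). Ifitm3, the best studied antiviral member of the family, stood at 31.5 FPKM after LIF withdrawal, 51.1 in EB, and 30.4 and 32.0 in ES cells. The LIF withdrawal value lay between the ES libraries and the EB value lay above both (log2 difference 0.69). All 3 genes were thus highest in EB, while the low value after LIF withdrawal was deep in Ifitm1, shallow in Ifitm2 and not seen in Ifitm3. The direction for Ifitm3 after LIF withdrawal (0.01) turned with scaling or with the ES library used and cannot be given.

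The make-up of the family's signal changed with these differences. Summed FPKM of Ifitm1, Ifitm2 and Ifitm3 were 183 after LIF withdrawal, 531 in EB, and 289.9 and 278 in ES 1 and ES 2. Ifitm1 made up 23% of the sum after LIF withdrawal, 55.3% in EB, and 41.8% and 41.7% in ES cells. Ifitm2 was the most abundant of the 6 genes in ES cells and after LIF withdrawal, and Ifitm1 in EB. In ES cells the levels ran from Ifitm2 through Ifitm1, Ifitm3, Bst2 and Irf1 to Isg15, and no neighbouring pair in that order overlapped between the 2 libraries. After LIF withdrawal and in EB, Irf1 stood above Bst2. Within each ES library Ifitm1 lay above at least 93.9% of the protein-coding genes at 1 FPKM or more, against 80.9% after LIF withdrawal and 98.3% in EB.

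The similarity of these sequences limits how far their reads can be told apart. Of the distinct 50-base stretches in annotated transcripts, 5.02% of those of Ifitm1, 48.5% of Ifitm2 and 63 of the 629 of Ifitm3 also occurred in transcripts of another gene, against none for Bst2. Ifitm1 and Ifitm3 had 15 such stretches in common and Ifitm2 and Ifitm3 had 20. Of the 294 shared stretches of Ifitm2, 219 also occurred in Gm45717, a gene annotated over it on the same strand. The level of Ifitm2 is the least certain of these for that reason.

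The Ifitm genes lie in a cluster on chromosome 7 that spans 69.0 kb from Ifitm5 to Ifitm6. Ifitm5, a bone-restricted relative, stood at 3.01 FPKM after LIF withdrawal, 3.13 in EB, and 1.68 in each ES library, so both derived libraries were higher. Ifitm6 was listed at 0.215 FPKM in EB and at 0 elsewhere. Among the 7 genes within 100 kb of Ifitm3 that reached 1 FPKM and are not among the 6, differences from ES cells ran from -0.10 to 0.58 after LIF withdrawal and from -0.003 to 0.63 in EB on the log2(FPKM + 1) scale. None of the 7 was 2-fold from both ES libraries, so the large differences at Ifitm1 were not seen in the genes flanking it. Elsewhere in the genome, Ifitm10 stayed under 1 FPKM in each library, and Ifitm7 was at 3.93 FPKM after LIF withdrawal, 1.81 in EB, and 1.30 and 1.25 in ES cells.

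**Figure D2:**
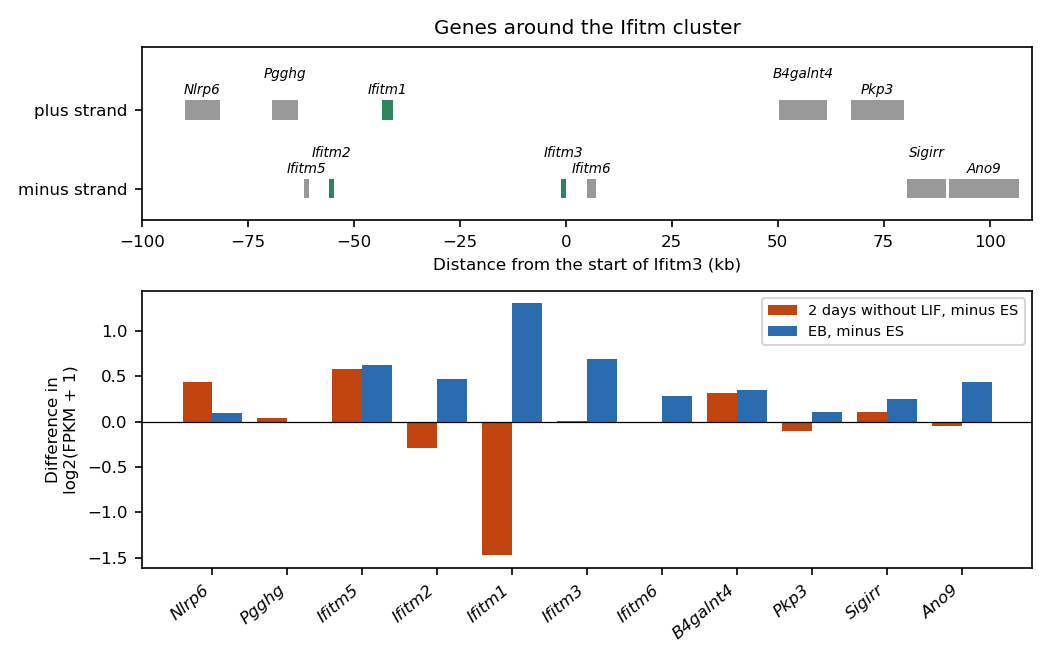
Top, genes with any signal around the Ifitm cluster by distance from the start of Ifitm3 in kb, green for Ifitm1, Ifitm2 and Ifitm3. Bottom, difference in log2(FPKM + 1) of each derived library from the ES mean, where Ifitm1 reached -1.47 and 1.30 and no other gene shown passed 0.69 in either direction.

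Bst2, or tetherin, which holds budding virus particles on the cell surface, behaved otherwise. It stood at 18.8 FPKM after LIF withdrawal, 10.5 in EB, and 16.1 and 19.5 FPKM in ES cells (chromosome 8, 71534255 to 71537456, minus strand). The LIF withdrawal library lay between the ES libraries and the EB library below both, at 0.589 of the ES mean (log2 difference -0.71). Bst2 was the only one of the 6 genes that was lower in EB than in both ES libraries. Of its nearest neighbours, Ccdc194 was also lower in EB, at 0.622 FPKM after LIF withdrawal, 0.2195 in EB, and 0.758 and 0.783 in ES cells. The neighbour on the other side, Mvb12a, stood at 13.1 FPKM after LIF withdrawal, 17.5 in EB, and 16.1 and 17.1 in ES cells.

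Irf1, a transcription factor that activates interferon and inflammatory genes, was above ES cells in both derived libraries. It stood at 24.9 FPKM after LIF withdrawal, 31.1 in EB, and 12.9 and 14.3 FPKM in ES cells (chromosome 11, 53770014 to 53778374, plus strand). The ratios to the ES mean of 13.6 ± 0.980 FPKM (SD, n = 2) were 1.83 after LIF withdrawal and 2.29 in EB. On the log2(FPKM + 1) scale these were differences of 0.83 and 1.14, of which the second passed 2-fold from both ES libraries. Of 9163 protein-coding genes at 5 FPKM or more in a library, 366 were at least as far above ES cells after LIF withdrawal, Irf1 included, and 68 in EB. A predicted gene on the opposite strand, Gm17334, covers 135 of the 3976 exon bases of Irf1 and was at 0.312 FPKM after LIF withdrawal and listed at 0 in the other libraries.

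Isg15, a ubiquitin-like protein that is joined to other proteins and is among the genes most strongly induced by type I interferon, was listed at 0 in all 4 libraries (chromosome 4, 156199424 to 156200818, minus strand). For its model of 756 nt, 3 fragments would have given 0.217 FPKM after LIF withdrawal, 0.148 in EB, and 0.125 and 0.148 in ES 1 and ES 2. Of 21618 protein-coding genes 4298 were likewise listed at 0 in all 4 libraries. Whether any reads lay on Isg15 was not tested, so the listed 0 is not shown to be an absence of its RNA. Its neighbour Agrn stood at 27.6 FPKM after LIF withdrawal, 14.4 in EB, and 22.4 and 23.2 in ES cells. The enzymes that attach ISG15 (Uba7, Ube2l6 and Herc6) and the protease that removes it (Usp18) each stayed under 1 FPKM in each library. None of them entered a test. Uba7, the activating enzyme, stood at 0.883 FPKM after LIF withdrawal, 0.230 in EB, and 0.178 and 0.0493 in ES cells. Ube2l6, the conjugating enzyme, stood at 0.786 FPKM after LIF withdrawal, 0.995 in EB, and 0.772 and 0.778 in ES cells. Herc6, the ligase, stood at 0.852 FPKM after LIF withdrawal, 0.983 in EB, and 0.463 and 0.701 in ES cells. Uba7 was thus highest after LIF withdrawal, and Ube2l6 and Herc6 in EB. Usp18 stood at 0.135 FPKM after LIF withdrawal, 0.158 in EB, and 0.153 and 0.0224 in ES cells.

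The other genes of the pathway were taken from 9 lists covering 166 genes, of which 83 reached 1 FPKM in a library. Tests used limma over all 15676 genes at 1 FPKM or more, with a call at an adjusted p under 0.05 and a change of at least 1 in log2(FPKM + 1). With 1 residual degree of freedom, all of the spread behind these p-values comes from ES 1 and ES 2. After LIF withdrawal limma called 5 of the 83 higher and 0 lower (6.02%), against a background of 7.32% of all genes higher and 0.357% lower (7.67% in either direction). Of the 1147 genes called higher, 981 (85.5%) reached 1 FPKM only in the LIF withdrawal library, Ifnk and Irf7 among them. Such genes entered the test through the library where they are high, so neither count supports a rise. At an unadjusted p under 0.05 were 38 of the 83, against 37.2% of all genes. The 83 genes had a median difference of 0.22 in log2(FPKM + 1), against 0.04 over all genes tested, and 61 of them (73.5%) lay above 0, against 54.5%. In EB limma called 0 of the 83, against 0.396% of all genes, with 35 of the 83 at an unadjusted p under 0.05, against 27.7% of all genes. Their median difference was 0.105, against -0.01 over all genes. By size alone, 7 of the 83 were at least 2-fold above both ES libraries after LIF withdrawal and 0 below, against 8.84% of all genes above, 0.836% below and 9.68% in either direction.

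**Figure D3:**
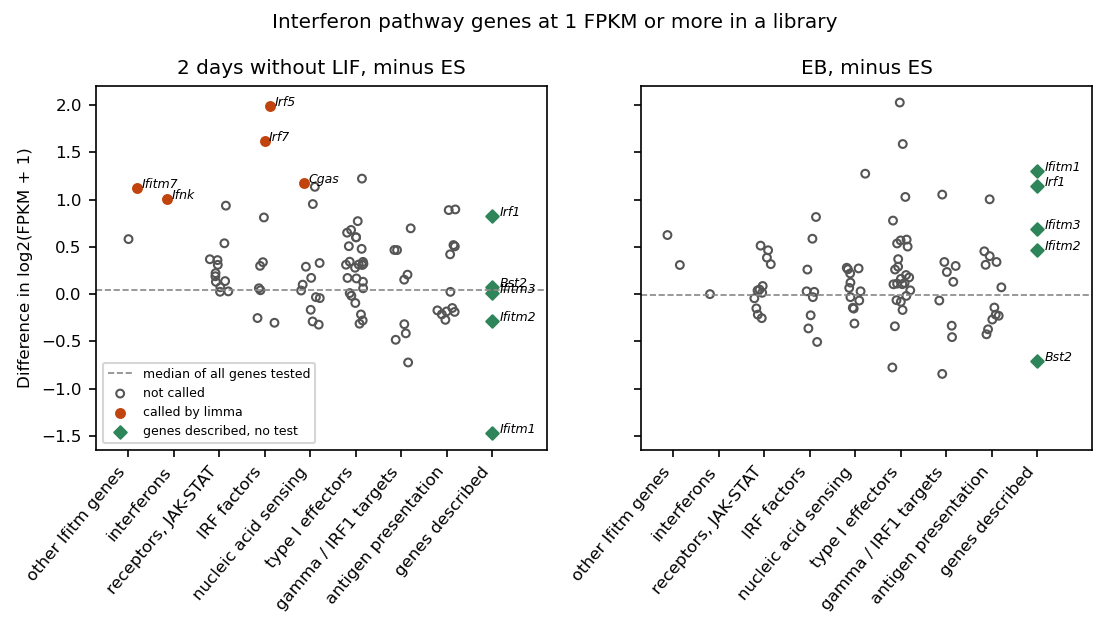
Difference of each derived library from the ES mean in log2(FPKM + 1) for the 83 pathway genes at 1 FPKM or more, by list. Filled circles passed limma, open circles did not, diamonds are Ifitm1, Ifitm2, Ifitm3, Bst2 and Irf1 without a test, and the dashed line is the median of all genes tested. The 5 called genes are Irf5, Irf7, Cgas, Ifitm7 and Ifnk, all after LIF withdrawal.

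Interferon genes themselves gave almost no signal. Of 21 ligand genes 19 were listed at 0 in all 4 libraries, Ifnb1 among them, and Ifng was at 0.0536 FPKM after LIF withdrawal and 0 elsewhere. Ifnk, an interferon of skin, was at 1.01 FPKM after LIF withdrawal and listed at 0 in EB and in both ES libraries. It passed the filter only through that 1 library, so its call is given with no p. It lies inside Mob3b, a gene on the opposite strand that was at 3.21 FPKM after LIF withdrawal, 2.82 in EB, and 4.83 and 4.28 in ES cells.

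The receiving end of the pathway was present in each library. Ifnar1, a type I receptor chain, stood at 23.4 FPKM after LIF withdrawal, 28.8 in EB, and 22.3 and 23.5 in ES cells. Ifnar2, its partner, was at 8.74 FPKM after LIF withdrawal, 7.58 in EB, and 7.20 and 7.50 in ES cells. The gamma receptor chains were lower, with Ifngr1 at 4.44 FPKM after LIF withdrawal, 2.68 in EB, and 3.57 and 3.20 in ES cells. Ifngr2 stood at 5.02 FPKM after LIF withdrawal, 3.49 in EB, and 2.13 and 2.17 in ES cells, a difference of 0.94 and 0.51 in log2(FPKM + 1) that did not reach the call. The kinase gene Jak1 was at 19.6 FPKM after LIF withdrawal, 15.1 in EB, and 14.7 and 15.2 in ES cells. Stat2 stood at 6.01 FPKM after LIF withdrawal, 4.73 in EB, and 5.09 and 5.66 in ES cells, and Irf9 at 4.28 FPKM after LIF withdrawal, 5.06 in EB, and 4.0 and 3.30 in ES cells. Of the 12 genes in this group limma called 0 in either comparison, with 4 at an unadjusted p under 0.05 in each (37.2% of all genes after LIF withdrawal, 27.7% in EB). After LIF withdrawal all 12 lay above 0 (54.5% of all genes), with a median difference of 0.21 in log2(FPKM + 1). Tyk2 (0.025) and Ifnar1 (0.029) lay under the median of all genes tested (0.041). Whether they stay above 0 under other scaling was not tested, so the count of 12 is uncertain. In EB 8 of the 12 lay above 0 (45.5% of all genes), with a median of 0.04.

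The list of interferon regulatory factors also held Irf2bp1, Irf2bp2 and Irf2bpl, genes of IRF2-binding proteins. Of its 9 genes at 1 FPKM or more, limma called 2 higher after LIF withdrawal, against 7.32% of all genes. Irf5, a factor of inflammatory cytokine induction, was at 5.26 FPKM after LIF withdrawal, 1.36 in EB, and 0.636 and 0.513 in ES cells (log2 difference 1.99 after LIF withdrawal). Irf7, the main amplifier of type I interferon, was at 2.70 FPKM after LIF withdrawal, 0.235 in EB, and 0.155 and 0.266 in ES cells (log2 difference 1.62 after LIF withdrawal). It passed the filter only through the LIF withdrawal library, and its call was lost with pseudocounts of 0.1 and 0.5, without the filter and without a trend, so no p is given. Cgas, the cytosolic DNA sensor, was at 3.16 FPKM after LIF withdrawal, 1.24 in EB, and 0.821 and 0.864 in ES cells (log2 difference 1.175 after LIF withdrawal). Irf5 and Cgas were under 1 FPKM in both ES libraries and entered the test through the derived libraries. For that reason no p is given for them. Ifitm7 was the remaining call (1.12, limma adjusted p = 0.033) and reached 1 FPKM in all 4 libraries. With a pseudocount of 0.1 the calls of Irf5, Cgas and Ifitm7 were lost.

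All 5 called genes have a gene on the opposite strand, and the labels do not say whether counting used strand. Tnpo3, opposite Irf5 over 411 of its exon bases, was at 71.9 FPKM after LIF withdrawal, 74.6 in EB, and 75.1 and 79.5 in ES cells. Phrf1, opposite Irf7 over 45 bases, was at 43.2 FPKM after LIF withdrawal, 35.1 in EB, and 35.4 and 33.4 in ES cells. Phrf1, Gm8093 and 2900011O08Rik were each highest after LIF withdrawal, like the gene opposite them. Gm8093, over 201 exon bases of Cgas, was at 1.72 FPKM after LIF withdrawal, 0.463 in EB, and 0.0913 and 0.0862 in ES cells. The gene 2900011O08Rik, over 259 exon bases of Ifitm7, was at 17.6 FPKM after LIF withdrawal, 9.79 in EB, and 11.7 and 12.1 in ES cells. Mob3b, opposite Ifnk, covers 0 of its exon bases and was lower after LIF withdrawal than in both ES libraries. Over all genes tested 44.2% have such a partner, against 82.7% of the 1147 genes called higher after LIF withdrawal. The part of the partners in these 5 levels was not tested, and the levels stay uncertain. Most leukocyte genes with any signal lay above ES cells after LIF withdrawal. Csf1r, Lyz2 and Fcer1g stood at 1.61, 1.36 and 1.93 FPKM after LIF withdrawal and at or below 0.535 FPKM in the other libraries. Of 5 leukocyte markers at 1 FPKM or more, these 3 were 2-fold above both ES libraries (8.84% of all genes). Each of these 3 passed that filter only through the LIF withdrawal library, so the median of the 5 (log2 difference 1.24) supports no rise. Under 1 FPKM, Ptprc, Cd52 and Adgre1 lay above ES cells there (log2 differences of 0.238, 0.253 and 0.073). Cd14 and Itgam, also under 1 FPKM, lay slightly below them (-0.13 and -0.12). Aif1 and Tyrobp were listed at 0 throughout. The 12 leukocyte markers summed to 64.9 FPKM after LIF withdrawal, 45.4 in EB, and 40.8 and 44.8 in ES cells. Laptm5 and Cd68 made up most of the first sum, at 43.6 and 15.8 FPKM. The part of leukocyte markers in these differences was not tested.

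Many classical antiviral effectors were low. Of 56 type I effector genes, 31 stayed under 1 FPKM in each library, and Mx1 and Epsti1 were listed at 0 in all 4. Limma called 0 of the other 25 in either comparison, with 13 at an unadjusted p under 0.05 in each (37.2% of all genes after LIF withdrawal, 27.7% in EB). By size, 3 effectors were at least 2-fold above both ES libraries in EB. Isg20, an exonuclease that degrades viral RNA, stood at 0.794 FPKM after LIF withdrawal, 5.68 in EB, and 0.657 and 0.619 in ES cells. Lgals3bp, a secreted glycoprotein, stood at 2.72 FPKM after LIF withdrawal, 3.80 in EB, and 0.682 and 0.513 in ES cells. Xaf1, a pro-apoptotic gene, stood at 4.44 FPKM after LIF withdrawal, 6.07 in EB, and 2.42 and 2.52 in ES cells. Casp4, an inflammatory caspase of the gamma and IRF1 target list, stood at 0.637 FPKM after LIF withdrawal, 1.10 in EB, and 0 and 0.0207 in ES cells. Dhx58, a helicase of the RNA sensing pathway named after its values were seen, was the last of the 5 pathway genes past 2-fold in EB, at 1.91 FPKM after LIF withdrawal, 2.20 in EB, and 0.223 and 0.433 in ES cells. These 5 of 83 compare with 1.63% of all genes higher by that size in EB, 0.734% lower and 2.37% in either direction. Isg20 and Casp4 reached 1 FPKM only in EB, so the count supports no rise. Of the gamma and IRF1 target list, 9 of 25 genes reached 1 FPKM, and limma called 0 of them in either comparison, with 4 at an unadjusted p under 0.05 after LIF withdrawal and 2 in EB, beside the same shares of all genes.

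When limma was fitted only to the 6808 protein-coding and long non-coding genes of at least 1000 nt that lie outside every gene on the opposite strand, the calls changed. In EB limma called 4 of the 44 pathway genes fitted, all higher, against 1.53% of all genes higher in that fit and 2.31% in either direction. Of the 4, Isg20 and Casp4 reached 1 FPKM only in EB, like 26 of the 104 genes called higher, so they are given no p and the count of 4 supports nothing. Xaf1, at 1 FPKM or more in all 4 libraries, was higher in EB by 1.03 in log2(FPKM + 1). It was not called in the fit over all genes, so no p is given. Lgals3bp, at 1 FPKM or more in both derived libraries and neither ES library, was higher by 1.59. After LIF withdrawal limma called only Lgals3bp, higher by 1.22, against 2.44% of all genes higher and 3.04% in either direction. Lgals3bp entered the fit through the libraries where it is high, so no p is given for it. None of the 5 calls made over all genes was in that set. The calls thus depend on the gene set fitted.

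Antigen presentation genes, many of them known targets of IRF1, gave no call. Of 12 at 1 FPKM or more limma called 0 in either comparison, with 5 at an unadjusted p under 0.05 after LIF withdrawal (37.2% of all genes) and 7 in EB (27.7%). Their median difference was -0.06 after LIF withdrawal and -0.04 in EB, with 6 of the 12 above 0 in each. After LIF withdrawal the largest differences were 0.896 for Tapbp and 0.889 for B2m in log2(FPKM + 1). In EB these were 1.003 and 0.402. Psme1, a proteasome activator subunit, stood at 132 FPKM after LIF withdrawal, 84.4 in EB, and 93.7 and 103 in ES cells, and its partner Psme2 at 34.1 FPKM after LIF withdrawal, 32.8 in EB, and 39.9 and 39.6 in ES cells.

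Genes whose pattern over the 4 libraries was most like that of Ifitm1 were found among the 9163 protein-coding genes at 5 FPKM or more in a library, by Euclidean distance between log2(FPKM + 1) values centred on the ES mean. Tfap2c, a transcription factor of trophoblast and germ cells, was nearest, at a distance of 0.351. It stood at 0.836 FPKM after LIF withdrawal, 11.1 in EB, and 3.73 and 2.88 in ES cells. Next came Sox21 (0.631), Krt17 (0.655), the hormone precursor gene Trh (0.814) and Cox7a1 (0.853). Tfap2c, Sox21, Krt17 and Cox7a1 reached 5 FPKM only in EB, whereas Trh reached it in each library. The former thus entered the comparison through the library where they are high, so their likeness is a description only. Trh stood at 36.2 FPKM after LIF withdrawal, 231 in EB, and 66.8 and 63.6 in ES cells. The germ cell regulator Prdm1 stood at 3.20 FPKM after LIF withdrawal, 9.50 in EB, and 4.14 and 3.99 in ES cells. Of 6 germ cell markers at 1 FPKM or more, it alone was 2-fold above both ES libraries in EB (1.63% of all genes). The median difference of the 6 in log2(FPKM + 1) was -0.32 after LIF withdrawal and 0.21 in EB. Ddx4 alone among the 6 lay below ES cells in EB (log2 difference -0.55). A shared germ cell pattern was not tested.

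The other genes had closer matches. Rit1 and Phkg2 lay nearest to Ifitm2 (0.049 and 0.054), Slc7a3 and Notum to Ifitm3 (0.028 and 0.053), Hist1h2bc and Nphs1 to Bst2 (0.042 and 0.045), and Fam25c and Dlgap3 to Irf1 (0.079 and 0.085). Slc7a3, an amino acid transporter gene, stood at 39.9 FPKM after LIF withdrawal, 63.5 in EB, and 38.1 and 40.9 in ES cells, close to the order of Ifitm3. These likenesses rest on 4 libraries.

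**Figure D4:**
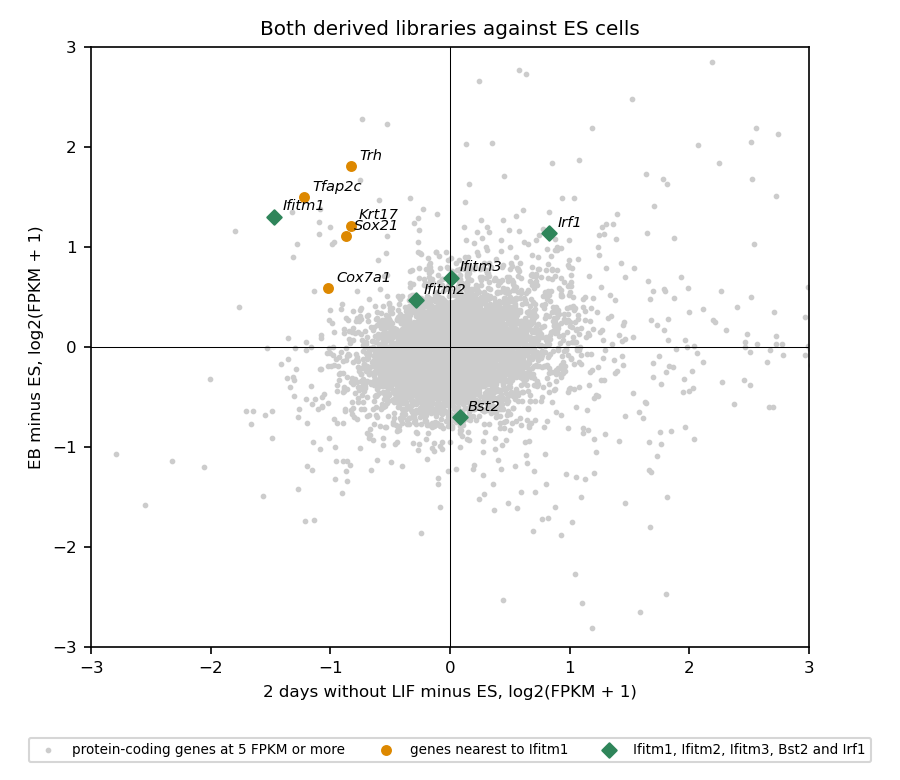
Differences from the ES mean in log2(FPKM + 1) after 2 days without LIF (horizontal) and in EB (vertical), which share the ES libraries. Grey dots are 9163 protein-coding genes at 5 FPKM or more in a library, of which 47 lie outside the axes, green diamonds the genes described and orange dots the 5 genes nearest to Ifitm1. Ifitm1 sits at the upper left with Tfap2c, Irf1 at the upper right, and Bst2 below the centre.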

How the data were processed

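The authors deposited FPKM per gene from total RNA libraries. Trimmomatic 0.36, STAR, Cufflinks and mm10 are listed in the submitters' processing notes, while their options, the annotation and the use of strand were not given in the sources used here. GENCODE release 21 (mm10) supplied gene symbols and positions for 47219 of 47633 identifiers, and 1 older symbol was matched through RefSeq synonyms. Promoters were those of RefSeq (GRCm38.p6). Depth is an estimate that takes the commonest low length-scaled value as 1 fragment. Floors of 3 fragments per library and intervals cover counting error alone.

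A gene entered the test if any library reached 1 FPKM. The scale was log2(FPKM + 1), which understates changes of low genes, and the tool limma 3.58.1 in R 4.3.3 (trend, all libraries in 1 model, Benjamini-Hochberg over all genes). The spread came from the ES pair, whose p-values may measure technical spread only, and each lone library was assumed to vary likewise. The fit was tested on simulated data. The members and lists were chosen with earlier results of these data known. Named pathway genes were up to 4 called genes per list, else up to 4 at 2-fold from both ES libraries, else the 2 most abundant, plus receptors, Jak1, Stat2, Irf9, the Ifitm and ISG15 conjugation lists, the nearest genomic neighbours, and the genes of most like pattern (5 for Ifitm1, 2 for each other gene). Mx1, Epsti1, Ifnb1, Ifng, Dhx58, Tapbp and B2m were named after their values were seen. One gene under this rule is not reported here. Lists of fibroblast, leukocyte, endothelial, germ cell and ES cell markers were also summed. Endothelial markers (8 genes) summed to 10.8 FPKM after LIF withdrawal, 13.0 in EB, and 12.4 and 12.5 in ES cells. Alternatives covered pseudocounts, scaling, filters, gene sets and each ES library left out.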

Additional observations from a re-analysis of the deposited data

Results flagged for a closer look

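Ifitm1 and Ifitm2 were picked out because the library after 2 days without LIF and the EB library lay on opposite sides of both ES libraries. The EB library minus the LIF withdrawal library was 2.77 in log2(FPKM + 1) for Ifitm1 and 0.76 for Ifitm2. Neither difference was tested, since each condition has 1 library, and for Ifitm1 it is the pattern by which the genes were chosen.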

How the results depend on the processing

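Over 7 settings of scaling, pseudocount and ES library, Ifitm1 stayed between -1.52 and -1.44 after LIF withdrawal and between 1.27 and 1.33 in EB, and Irf1 between 0.76 and 0.90 after LIF withdrawal and between 1.07 and 1.21 in EB. Bst2 after LIF withdrawal ran from -0.05 to 0.21 and Ifitm3 from -0.04 to 0.05, so neither had a direction. The pathway median after LIF withdrawal was 0.222, and 0.308 and 0.288 with pseudocounts of 0.1 and 0.5, 0.182 with median-of-ratios factors, 0.24 with equal sums without the 10 highest genes, and ran from 0.222 to 0.249 without one ES library. In EB it was 0.105, and 0.126 and 0.111 with pseudocounts of 0.1 and 0.5, 0.126 with median-of-ratios factors, 0.101 with equal sums, and from 0.084 to 0.138 without one ES library. Pathway calls after LIF withdrawal numbered 5, but 1 with a pseudocount of 0.1, 1 at 5 FPKM or more and 1 in strand-clear genes. In EB they numbered 0, but 1 at 5 FPKM or more, 2 without a filter on low values, 1 over protein-coding genes and 4 in strand-clear genes. Pathway genes 2-fold from both ES libraries numbered 7 of 83 after LIF withdrawal and 5 in EB, against 9.68% and 2.37% of all genes. With a pseudocount of 0.1 they numbered 13 after LIF withdrawal and 10 in EB, and with 0.5 they numbered 11 after LIF withdrawal. At 5 FPKM or more, where 44 pathway genes remained, they numbered 1 after LIF withdrawal and 2 in EB. The shares of all genes under these alternatives were not computed, so these counts support no change. Pathway calls after LIF withdrawal were more numerous than in the main fit with a pseudocount of 0.5 and over protein-coding genes. Fewer genes are fitted at 5 FPKM or more, over protein-coding genes and in strand-clear genes, and otherwise the cause was not tested. Limma called 62 genes in EB over all genes, 131 with a pseudocount of 0.1, 138 without a filter, 41 at 5 FPKM or more, 157 in strand-clear genes and 0 without a trend. After LIF withdrawal it called 1203, but 395 at 5 FPKM or more, 562 over protein-coding genes and 207 in strand-clear genes. No paired analysis was possible because the derived conditions have 1 library each. Without an ES library no residual degree of freedom remains, so limma was not run there.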
